A study of Caenorhabditis elegans with 2 samples.

Results

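The ceh genes of Caenorhabditis elegans are the worm's numbered homeobox genes. They were taken as every protein-coding gene whose name begins with ceh in the Ensembl annotation of WBcel235, which gave 63 of 19973 protein-coding genes. The tagged gene itself, ceh-100, is one of them. The question asked of the data was where peaks of the CEH-100 protein lie at its own gene and at the other genes of its class.

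The measurement was chromatin immunoprecipitation and sequencing (ChIP-seq) of CEH-100 with an antibody against GFP. The strain, RW12233, carries the allele st12233 at the endogenous ceh-100 locus on chromosome II, an insertion made with CRISPR that adds TY1, EGFP and 3xFLAG tags to the protein. Both samples were whole young adults, 64 hours old, from cultures synchronised as starved first-stage larvae, and they are 2 biological replicates of 1 group. There is no second condition, every value comes from 1 tagged strain, and peaks of an untagged strain were not analysed here. In whole animals, a strong peak in few cells and a weak peak in many cells cannot be told apart.

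Homeobox genes encode transcription factors that bind DNA through a homeodomain, a fold of helices of which the last lies in the major groove. Most homeodomains read short sites rich in A and T, often with the core TAAT. In C. elegans they are best known for fixing the identity of neurons, muscles and epidermal cells, and many act on their own gene or on other homeobox genes.

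A peak is a stretch where sequenced fragments pile up, and its summit is the base of highest pile-up. Signal is the authors' enrichment value for a peak and has no unit. The irreproducible discovery rate (IDR) of a peak estimates how often peaks of that rank fail to recur between the sets of peaks compared. A low IDR thus marks a peak reproducible between those sets. The conservative set holds the 1685 nuclear peaks that passed the authors' IDR threshold between both replicates, and a second thresholded set holds 1884. The joint ranked list has no threshold and holds 20827 nuclear peaks. Replicates 1 and 2 have ranked lists of 25224 and 17091 peaks and thresholded lists of 1166 and 1333. An IDR from a replicate's own list comes from that 1 sample, so it does not measure recurrence between the replicates. Recurrence between the replicates is read here from the conservative set and the joint ranked list only. A peak missing from a replicate's own list can still have signal in that replicate, because the joint lists were made from both. Genes with an annotated start no more than 1000 bp from a summit were counted as having a peak. Read counts are absent from the peak lists, and the depth behind each peak is unknown.

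In the conservative set, 3 of 63 ceh genes had a peak, namely ceh-38, ceh-43 and ceh-100. That is 4.76% (Wilson 95% interval 1.63% to 13.1%), beside 7.28% of all protein-coding genes. The second thresholded set held peaks at these same 3 genes, beside 8.05% of all genes. In the joint ranked list 18 ceh genes had a peak, which is 28.6% (18.9% to 40.7%) beside 34.5% of all genes. The interval of the ceh share spans the genome-wide share in all 3 lists. Neither an excess nor a deficit of peaks at ceh genes was therefore detectable in them with 63 genes. This holds for these lists at 1000 bp only. At 500 bp, 9 of 63 ceh genes had a joint ranked peak, a lower share than the 25.5% of all genes. No interval was computed there, so a deficit at 500 bp is neither shown nor excluded. The intervals cover counting error only.

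**Figure D1:**
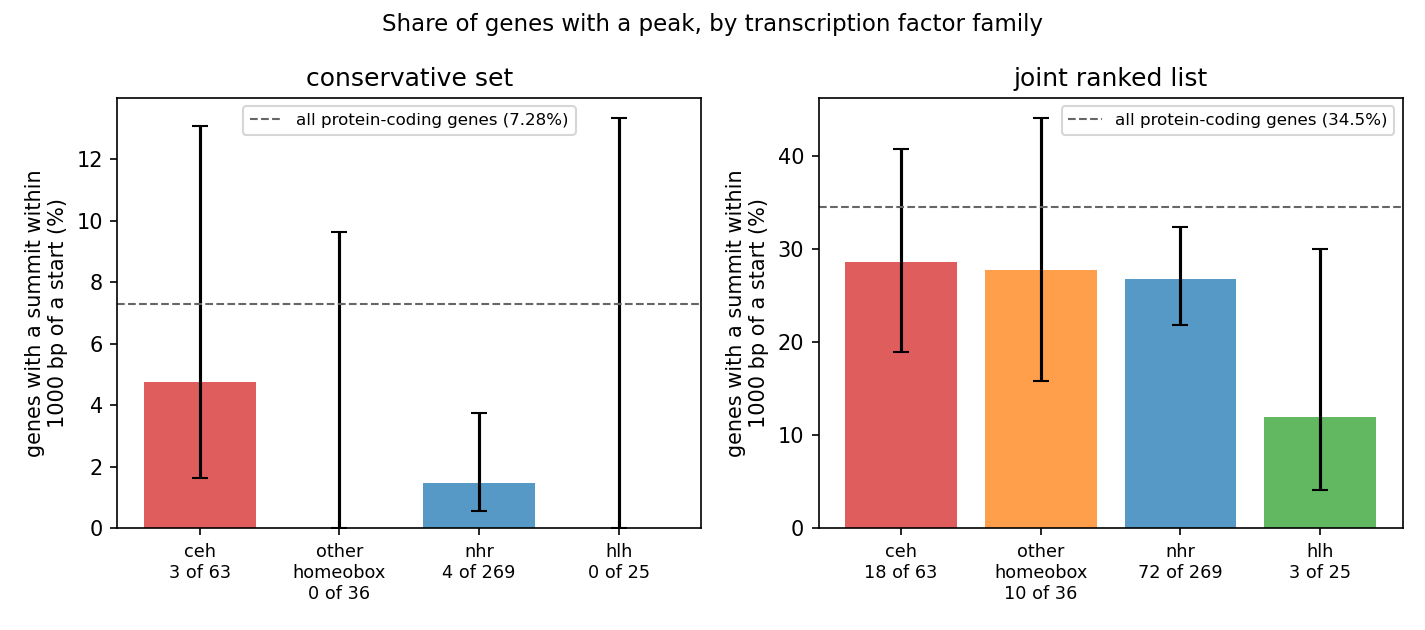
Share of genes with a summit within 1000 bp of a start (y axis, percent), in the conservative set (left) and the joint ranked list (right), for ceh genes, other homeobox genes, nuclear hormone receptor (nhr) genes and basic helix-loop-helix (hlh) genes. Bars are shares, whiskers are 95% Wilson intervals, and the dashed line is the share of all protein-coding genes, which lies within the interval of the ceh genes in both panels.

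The peak at ceh-43 lay on a tRNA gene. CEH-43 is the worm's Distal-less protein and takes part in the differentiation of dopaminergic neurons. The peak, at chrIII:4450236-4450551 on ce11 (the same assembly as WBcel235), had its summit at position 4450394, 451 bp upstream of the ceh-43 start and 8313 bp from the next gene, nex-3. Its joint signal was 123.3, at an IDR of 0.000739, which placed it at rank 950 of 1685 in the conservative set. In the replicates' own lists its signal was 68.5 in replicate 1 and 56.5 in replicate 2, and both replicates passed the threshold. The peak was therefore called in both samples. Signals are not scaled between the 2 lists, so its strength was not compared between the samples. The summit fell on base 3 of a tRNA-Arg gene, WBGene00014267, that is 73 bp long and runs along the same strand as ceh-43. The tRNA gene is printed below from the RefSeq sequence of WBcel235, chrIII:4450304-4450416 on the minus strand, because the peak centres on it. Capitals mark the tRNA gene, and 20 bases are shown on each side.
ceh-43 tRNA: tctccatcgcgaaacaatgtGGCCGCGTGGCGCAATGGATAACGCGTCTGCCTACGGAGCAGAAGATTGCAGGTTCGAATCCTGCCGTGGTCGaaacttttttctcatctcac

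The stretch GGTTCGA stands once in this tRNA gene, at its bases 52 to 58. This is part of the B box, the inner promoter element of tRNA genes that the RNA polymerase III factor TFIIIC binds. Of 612 annotated tRNA genes, 395 (64.5%) hold GGTTCGA on either strand. A second tRNA-Arg gene, WBGene00014268, lies in an intron of ceh-43, with its near edge 338 bp downstream of the start, and its 73 bases were identical to those of the first. That copy also carried a ranked peak, with its summit 309 bp downstream of the ceh-43 start and 29 bp outside the tRNA gene. Its joint signal was 91.8 at an IDR of 0.0103, with 44.9 in replicate 1 and 40.7 in replicate 2, and it was not in the conservative set. The upstream copy thus had the higher signal in both replicates.

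The same 73 bases occur 6 times in the nuclear genome, each time in an annotated tRNA gene, so reads inside them cannot be placed by these bases alone. How the authors placed such reads is not given in the sources used here. A conservative summit lay within 250 bp of 2 of the 6 copies, with signals of 116.7 and 123.3. The joint ranked list had a summit at 5 copies, with signals from 57.0 to 123.3, replicate 1 at all 6 (25.5 to 68.5) and replicate 2 at 4 (40.7 to 57.2). The copy upstream of ceh-43 was the highest of the 6 in the joint list and in replicate 1, while in replicate 2 a copy on chromosome IV was slightly higher, at 57.2 beside 56.5. Across the genome, 187 of 612 tRNA genes (30.6%) had a conservative summit within 250 bp and 453 (74.0%) a ranked one.

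The peak at ceh-38 was the highest among the ceh genes and the only conservative one that sat on a start. CEH-38 belongs to the CUT class, whose proteins pair a homeodomain with a cut domain. The peak, at chrII:6951438-6951753, had a joint signal of 130.3 at an IDR of 0.000405 and rank 880 of 1685. Its signal, not scaled between lists, was 65.9 in replicate 1 and 64.4 in replicate 2. The IDR within each replicate was 0.00302 in replicate 1, which passed the threshold, and 0.125 in replicate 2, which did not. The summit, at position 6951596, lay in the 5′ untranslated exon, 70 bp downstream of the most upstream start of ceh-38 and 23 bp upstream of the nearest one. The start of malt-1, the gene of the worm paracaspase on the opposite strand, was 296 bp away.

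A stretch of 88 bases of the ceh-38 peak lies outside annotated transcripts. It is printed from the RefSeq sequence, chrII:6951438-6951525 on the plus strand, so that it reads towards ceh-38, and capitals mark the single match to TAAT on either strand, centred 90.5 bp from the summit.
ceh-38: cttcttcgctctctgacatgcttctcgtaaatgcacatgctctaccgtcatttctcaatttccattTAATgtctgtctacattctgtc

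At ceh-100, the tagged gene, the conservative peak lay in the neighbouring promoter. The peak, at chrII:12604320-12604635, had its summit at position 12604478, which is 798 bp upstream of the ceh-100 start but 92 bp from the start of lips-15, a gene of the lipase-related family that runs the other way. The summit fell in the 5′ untranslated exon of lips-15. The joint signal was 108.9 at an IDR of 0.000910 and rank 1193 of 1685. In the replicates' own lists the signal was 56.3 in replicate 1, at an IDR of 0.0589, and 61.8 in replicate 2, at an IDR of 0.00117. Only replicate 2 passed its threshold, and in the thresholded list of replicate 1 the nearest summit to ceh-100 was 61888 bp away. When each summit was given only to the gene with the nearest start, ceh-100 had no peak.

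The part of this peak outside annotated transcripts, chrII:12604320-12604385, is printed on the minus strand, which is the strand of ceh-100. It holds no TAAT on either strand.
ceh-100: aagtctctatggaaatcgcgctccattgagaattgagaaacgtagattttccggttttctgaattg

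Inside the ceh-100 gene itself, which spans 21503 bp, neither the conservative set nor the joint ranked list had a summit. The ranked list of replicate 1 had 3 summits there and that of replicate 2 had 1. Of 404 protein-coding genes of at least 15000 bp, 71 (17.6%) held no joint ranked summit, and their median was 3.

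ceh-92 was the only ceh gene called in a single replicate's thresholded list and in neither joint set. In replicate 2 it had a peak at chrIII:11581457-11581720, with a signal of 61.6 at an IDR of 0.00410, rank 1033 of 1333, and a summit 11 bp upstream of the start. In replicate 1's own ranked list no peak covered the joint summit, and the highest one within 1000 bp of the start had a signal of 28.3. The joint signal was 89.4, but at an IDR of 0.599. The joint IDR was thus higher at ceh-92 than at ceh-38, ceh-43 or ceh-100. The start of Y66D12A.6, on the opposite strand, was 187 bp from the replicate 2 summit. The part of the peak upstream of annotated transcripts, chrIII:11581457-11581599 on the plus strand, again held no TAAT on either strand.
ceh-92: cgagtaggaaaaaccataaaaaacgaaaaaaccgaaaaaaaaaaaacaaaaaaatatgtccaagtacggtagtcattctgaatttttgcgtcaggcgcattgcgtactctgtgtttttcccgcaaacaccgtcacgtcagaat

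**Figure D2:**
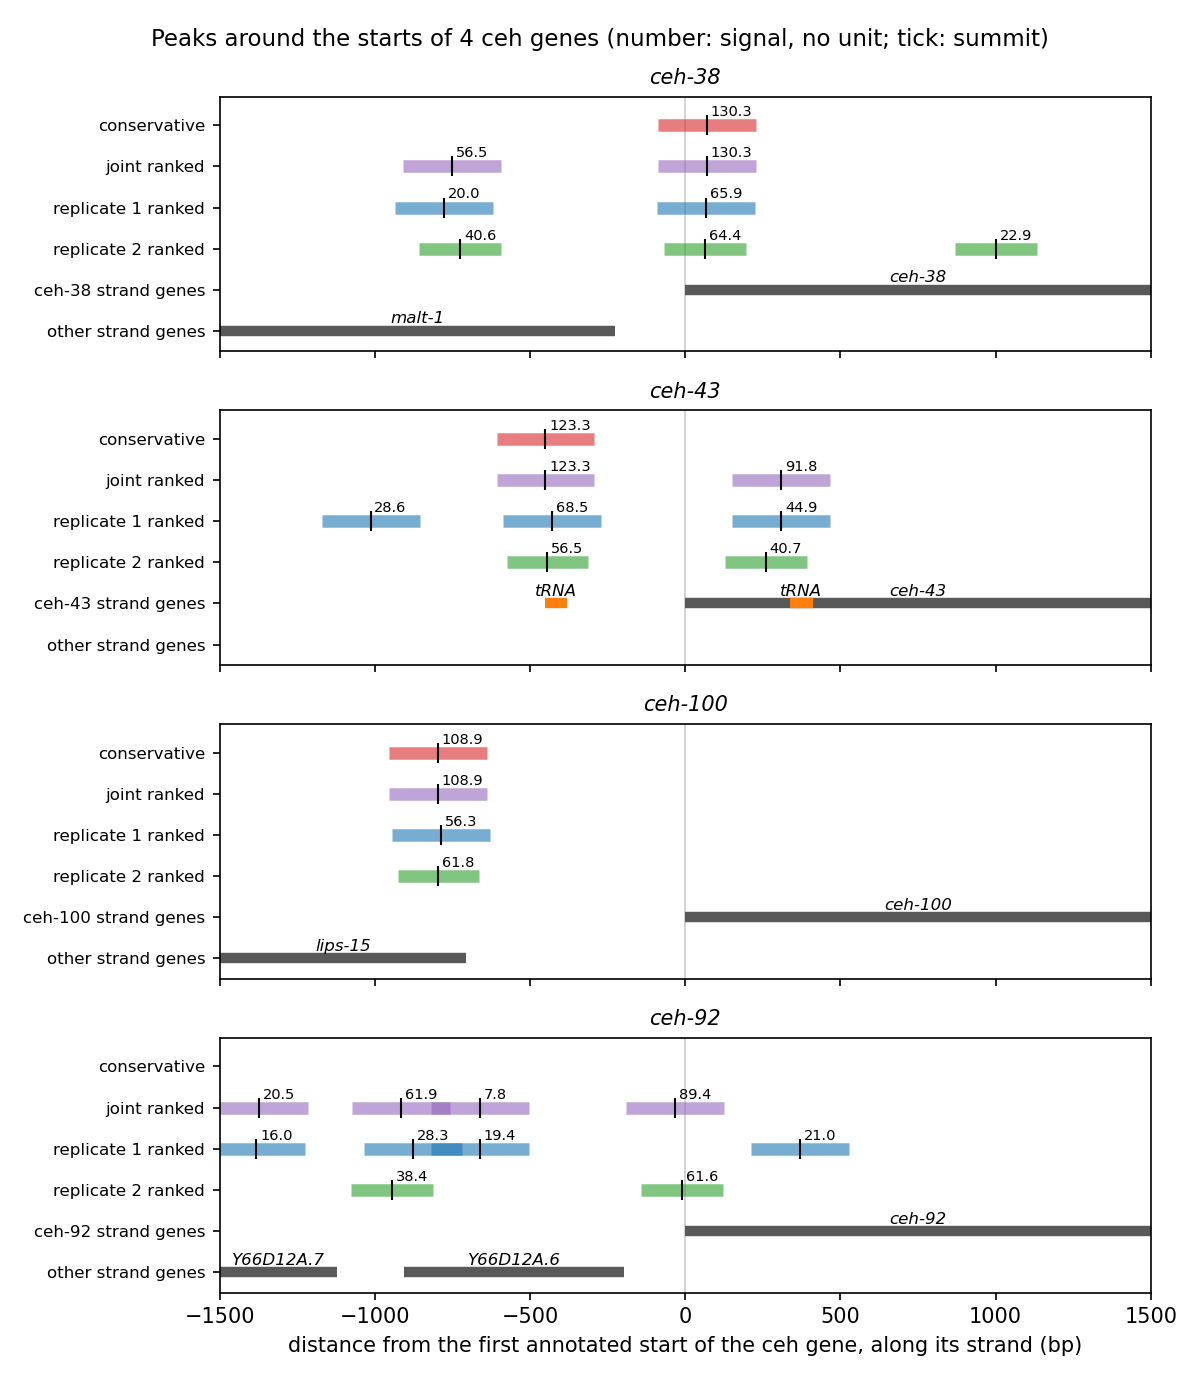
Peaks of 4 lists (coloured bars, with a tick at the summit and the signal above it, no unit) around the most upstream start of ceh-38, ceh-43, ceh-100 and ceh-92. The x axis is the distance from that start along the gene's strand in bp, grey bars are protein-coding genes and orange bars tRNA genes. The ceh-43 peaks of 123.3 and 91.8 each lie on or beside a tRNA gene, and the ceh-100 peak lies at the start of lips-15.

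The remaining 14 ceh genes with a joint ranked peak had signals from 17.5 to 89.7. ceh-2, whose protein is the worm's Empty spiracles homologue, had a signal of 89.7 at an IDR of 0.0212. Its summit lay 781 bp upstream of the start and within 250 bp of a tRNA gene, WBGene00022946. This peak was in replicate 2's own ranked list (57.3) and not in that of replicate 1. Thus 2 ceh genes, ceh-2 and ceh-43, have a tRNA gene within 1000 bp of a start. In both, the highest ranked summit lay on a tRNA gene or within 250 bp of it. Of all genes, 214 (1.07%) have such a neighbour. A conservative summit lay within 1000 bp of a start at 78 of these (36.4%) and at 1 of the 2 ceh genes, ceh-43. The share of the 214 with a ranked summit beside the tRNA gene was not computed. For small RNA genes of all kinds, 3 of 18 ceh genes had their highest ranked summit within 250 bp of one. Over all genes with a ranked summit this was 3.70%, and the difference was not tested.

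Most of the weaker peaks lay far from the start. ceh-45, the Goosecoid-type gene, had a signal of 61.98, at 27.9 and 32.6 in replicates 1 and 2, in an intron 660 bp downstream. ceh-63 had 53.6, at 16.7 and 30.7, with its summit 471 bp upstream, and ceh-19 had 50.4, at 19.9 and 26.0, with its summit 1000 bp downstream, at the very edge of the window. ceh-99 had 48.5, at 39.04 and 20.7, beside the snoRNA gene T21B4.20, and the start of the chemoreceptor gene srh-70 was nearer, at 338 bp. These 4 genes were listed in both replicates, but their joint IDR lay between 0.160 and 0.630.

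The POU genes and the Hox gene were at the same low level. ceh-6, a POU gene needed in the excretory canal and rectal cells, had a signal of 47.6 with its summit 161 bp downstream, in the 5′ untranslated exon, and was listed in replicate 1 only (19.5). ceh-18, a POU gene of the gonadal sheath that restrains oocyte meiosis, had 41.4, in an intron, also in replicate 1 only (23.3). ceh-13, the labial-type anterior Hox gene, had 41.5, 389 bp upstream, in replicate 2 only (22.5). ceh-91 had 45.3, with 21.4 and 25.5 in replicates 1 and 2, and ceh-87 had 45.2, in replicate 1 only (23.0). Each of these 5 peaks had a joint IDR above 0.05.

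The lowest ranked peaks were at ceh-21 (35.5) and ceh-39 (33.8), both CUT genes on X, and at ceh-86 (18.1) and ceh-62 (17.5). CEH-39 is one of the X-borne signals that count X chromosomes in sex determination. Its replicate 1 signal was 35.0, on a scale not shared with the joint list. Replicate 2's own ranked list had no peak over the summit.

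**Figure D3:**
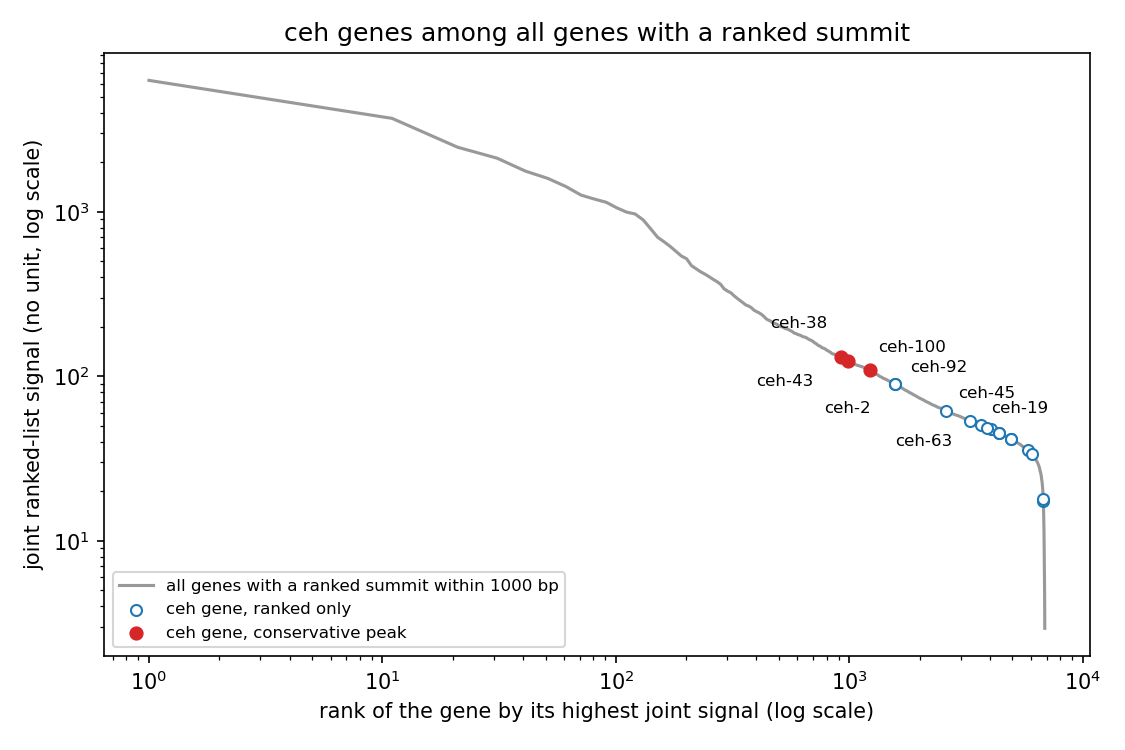
Joint ranked-list signal (y axis, log scale, no unit) against the rank of each gene by its highest signal within 1000 bp of a start (x axis, log scale), for all 6887 genes with a ranked summit (line) and 18 ceh genes (circles, filled for the conservative set). The highest ceh gene, ceh-38, ranks 922nd, with 130.3 beside a maximum of 6296 over all genes.

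By their highest joint signal, ceh-38, ceh-43 and ceh-100 ranked 922, 986 and 1224 among the 6887 genes with a ranked summit. The next were ceh-2 at 1566, ceh-92 at 1577, ceh-45 at 2599 and ceh-63 at 3294. The median signal of the 18 ceh genes was 48.04 (range 17.5 to 130.3), beside a median of 52.1 and a maximum of 6296 over all genes with a ranked summit. Among all 19973 genes, ceh-38, ceh-43 and ceh-100 stood within the top 4.62%, 4.94% and 6.13%. The 3 conservative ceh peaks fell below the median conservative signal of 134.2, and above its lower quartile of 103.8. Over all 19973 genes, with the genes lacking a peak tied at the lowest rank, the median ceh gene stood at percentile 32.8, which is the tied value, since 45 of 63 had no ranked summit.

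At an IDR of at most 0.05, the peaks of 4 of the 18 genes remained, ceh-38, ceh-43, ceh-100 and ceh-2. That is 22.2%, beside 27.1% of all genes with a ranked summit. Summits at ceh genes lay farther from the start than those of other genes. Their median distance was 564 bp beside 364 bp, and 8 of 18 (44.4%) lay within 500 bp beside 62.7% of all genes' summits. They lay upstream of the start at 10 of 18 genes (55.6%), beside 60.7%. With 18 genes these are descriptions and were not tested. The ceh genes also had wider gaps to the next gene upstream, with a median of 2477 bp beside 1156 bp over all genes, and the part of this gap in the distances was not tested.

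**Figure D4:**
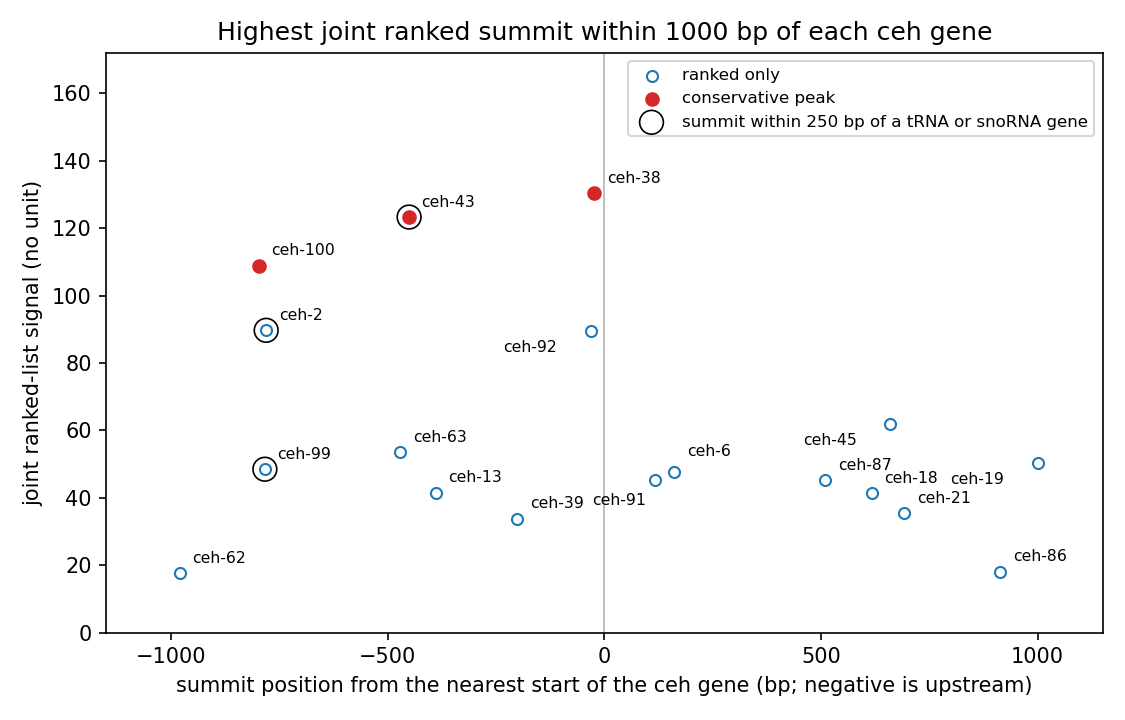
Joint ranked-list signal (y axis, no unit) of the highest ranked summit within 1000 bp of each of 18 ceh genes against its distance from the nearest start of that gene (x axis, bp, negative upstream). Filled circles are in the conservative set and ringed circles lie within 250 bp of a tRNA or snoRNA gene. The 5 peaks above 80 all lie upstream of a start, between 23 and 798 bp.

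Both replicates' own ranked lists held the 3 conservative ceh peaks and 5 of the 15 others. A peak covered the joint summit in both own lists at 8 of the 18 genes. At 4 this was so in replicate 1 only, at 5 in replicate 2 only and at 1, ceh-86, in neither. Absence from an own list does not show that a replicate lacked the peak. The signal of each replicate within the joint list was not read here. Where both had one, the higher signal was 1.02 to 1.89 times the lower, with signals not scaled between the lists. In its thresholded list replicate 1 had a peak at 2 ceh genes (3.17%), ceh-38 and ceh-43, beside 5.44% of all genes. Replicate 2 had one at 3 (4.76%), ceh-43, ceh-92 and ceh-100, beside 6.48% of all genes. Only ceh-43 was thus called in both.

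In the ranked lists, replicate 1 had a summit at 25 ceh genes (39.7%), beside 46.6% of all genes, and replicate 2 at 16 (25.4%), beside 36.2%. Both replicates listed 9 (14.3%), where 26.8% of all genes were listed in both. No interval was computed for this lower share, and it was not tested. A further 15 ceh genes, with no summit in the joint list, had one in a single replicate. Of these, 10 were in replicate 1, among them ceh-30 (37.3), which keeps the CEM neurons of males alive, ceh-34 (32.8), a sine oculis-type gene of pharyngeal neurons, and ceh-22 (28.5), the NK gene of pharyngeal muscle. Another 5 were in replicate 2, and the signals of all 15 lay between 16.6 and 37.3. At 30 of the 63 genes, neither the joint nor either replicate's ranked list held a summit in the window of 1000 bp. Among these were ceh-10, ceh-14, ceh-16, ceh-20, ceh-24, ceh-28, ceh-32, ceh-33, ceh-37, ceh-48 and ceh-60. The shares of all genes in no ranked list, or in a single replicate's list only, were not computed. The counts of 30 and 15 therefore cannot be set against other genes.

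**Figure D5:**
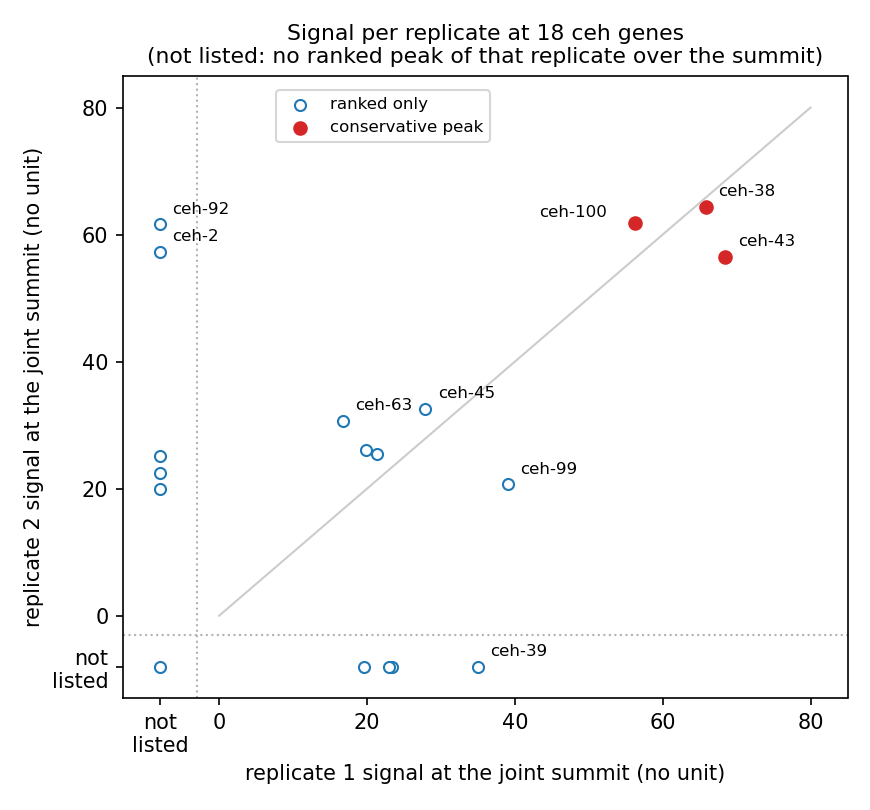
Signal of the ranked peak of replicate 1 (x axis, no unit) and replicate 2 (y axis, no unit) over the joint summit at 18 ceh genes, with the grey line marking equal signal and filled circles the conservative set. The conservative peaks lie near the line, while 10 of 18 genes lack a peak in at least 1 replicate's own ranked list. Signals are not scaled between the lists, so the line does not mark equal strength.

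Peaks fell in several classes of homeobox gene, most of them too small to be compared. Over all genes, 34.5% had a joint ranked summit and 7.28% a conservative one. Among the CUT genes 3 of 6 had a joint ranked summit, ceh-21, ceh-38 and ceh-39, and 1 a conservative one. Among the NK and other Antennapedia-related genes these were 3 of 15, ceh-2, ceh-19 and ceh-43, and 1. Both POU genes and the single Hox gene had a ranked summit, and 1 of 6 paired-like genes, ceh-45. The POU and Hox peaks had joint IDRs from 0.507 to 0.798, and each was listed in a single replicate. None of 3 sine oculis-type genes, 3 TALE genes or the LIM gene ceh-14 had a joint ranked summit. The 26 genes left without a class, which include ceh-100, had 8 ranked summits and 1 conservative one.

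By chromosome, ranked summits were found at 3 of 8 ceh genes on I, 6 of 13 on II, 4 of 8 on III, 1 of 4 on IV, none of 12 on V and 4 of 18 on X. On V, 27.5% of all genes had one, and the shares of all genes on each of I to IV were not computed. The 45 autosomal ceh genes had 3 conservative peaks (6.67%) beside 8.21% of all autosomal genes, and 14 ranked ones (31.1%) beside 35.8%. On X, where 1.43% of all genes had a conservative peak, none of 18 ceh genes did (Wilson interval up to 17.6%). On X 22.2% of ceh genes had a ranked summit beside 26.0% of all genes. X holds 18 of 63 ceh genes and 2731 of all 19973 genes. On the autosomes the conservative ceh share did not differ from that of all autosomal genes beyond its interval (2.29% to 17.9%). That interval is wide and rests on 3 peaks, and the part of chromosome in the ceh share was not tested.

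Just outside the window of 1000 bp stood the strongest thresholded peak in a ceh gene. It lay in ceh-8, a paired-like gene of the retinal homeobox type, with its summit at position 8245644 on chromosome I, 1323 bp downstream of the nearest ceh-8 start, in a 3′ untranslated exon and 139 bp before the end of the gene. Its joint signal was 216.4 at an IDR of 2.9e-05 and rank 411 of 1685, with 80.8 in replicate 1 and 135.3 in replicate 2, both past the threshold. The nearest start was that of the collagen gene col-63, at 681 bp. Of the other ceh genes with a joint ranked summit between 1000 and 2000 bp and none nearer, ceh-5 had the highest signal, 82.3, 1865 bp upstream at an IDR of 0.0185. The rest, ceh-31, ceh-41, ceh-79 and ceh-93, had signals between 18.8 and 41.1.

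Short sites of the homeodomain type were counted at the ceh peaks and at all summits. TAATTA, searched on both strands in windows of 101 bp centred on summits, was found at 2 of 18 ceh peaks, ceh-18 and ceh-63 (11.1%). These 2 peaks had joint IDRs of 0.798 and 0.630. TAATTA was found in 3.46% of the windows at all ranked summits and in 1.78% of those at conservative summits. The difference was not tested. The core TAAT, which TAATTA contains, was found at 9 of 18 ceh peaks (50%), beside 52.2% of ranked and 39.5% of conservative windows. The windows at the 3 conservative ceh peaks and at ceh-2 and ceh-92 held neither. In promoters of 300 bp, from 250 bp before to 50 bp after the first start, TAATTA stood in 9 of 63 ceh genes (14.3%) beside 15.5% of all genes, and TAAT in 59 (93.7%) beside 95.3%. GGTTCGA, the B box stretch, was in none of 18 ceh windows, including that of ceh-43, whose window ends inside the stretch. It was in 4.93% of windows at conservative summits, 1.97% at ranked summits and 1.42% of promoters.

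Other families of transcription factor genes are given for comparison. Of 36 homeobox genes with other names, none had a thresholded peak (Wilson interval up to 9.64%) and 10 (27.8%) a joint ranked one. The highest of these were pal-1 (78.9), the Caudal-type gene, dve-1 (71.3), php-3 (57.9) and unc-62 (56.4), all below ceh-2. Of 269 nuclear hormone receptor genes 4 (1.49%) had a conservative peak and 72 (26.8%) a ranked one. Their highest, at nhr-142, had a signal of 974.8, above every ceh gene, followed by nhr-47 (194.5), nhr-41 (114.6) and nhr-255 (105.4). Of 25 basic helix-loop-helix genes none had a conservative peak, hlh-11 (70.8) had one in the second thresholded set, and 3 (12%) had a ranked one. The intervals of the 3 other families overlap that of the ceh genes in the conservative set and in the joint ranked list. Such overlap does not show that the shares are alike. The nuclear hormone receptor interval lay below the share of all genes in the conservative set (0.58% to 3.76% beside 7.28%). It also did so in the joint ranked list (21.8% to 32.4% beside 34.5%), as did that of the hlh genes (4.17% to 29.96%). The other intervals of these families spanned the share of all genes.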

How the data were processed

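The deposited lists give, for 2 biological replicates, thresholded and ranked peaks of each and of both jointly, on ce11. Which aligner and peak caller made them is not given in the sources used here. The authors used a control alignment, per the deposited text lists, and the joint thresholded lists also had a further input that is not described. The signal score is the authors' enrichment value per peak, not scaled between lists. The deposited IDR score has a ceiling of 1000, and the lowest thresholded value was 830. The ranked lists hold the authors' −log10 of the global IDR, limited to 5. Depth is unknown, so no value was adjusted for it.

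Summits were assigned to every gene with a start of any transcript within 1000 bp, using Ensembl release 115 (29784 gene starts on 6 nuclear chromosomes), so 1 summit can count for several genes. Mitochondrial peaks were left out. Replicate values come from each replicate's own lists. Small RNA genes counted as near within 250 bp. Sequences are from the RefSeq genome of WBcel235. The ceh genes and the other lists were chosen with earlier results of these data known, and no list was tested. Named were ceh-100, every ceh gene with a thresholded summit within 1000 bp and the gene nearest to it, the 10 other ceh genes of highest joint signal, those with a thresholded summit between 1000 and 2000 bp, and up to 4 genes of each other family. ceh genes named beyond these were chosen after their values were seen. Alternatives were other windows, the nearest gene only, peaks beside small RNA genes left out, a global IDR of at most 0.001, the other lists and each replicate alone. Shares have 95% Wilson intervals. Tools were pandas 2.3.3 and numpy 2.4.6 under Python 3.11.15, with scipy 1.17.1 for intervals and matplotlib 3.10.9 for plots. The assignment was tested on simulated summits.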

Additional observations from a re-analysis of the deposited data

How the results depend on the processing

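The count of ceh genes with a peak followed the window. At 200 bp it fell from 3 to 1 in the conservative set (ceh-38) and from 3 to 1 in the second thresholded set, and from 18 to 5 in the joint ranked list, where 500 bp gave 9. The shares of all genes at 200 bp were 2.93%, 3.26% and 14.97% in these lists. At 500 bp the share of all genes in the joint ranked list was 25.5%. No interval was computed for the ceh genes at these windows, so a deficit there was not tested. The median percentile moved from 32.8 to 37.2 at 500 bp, to 26.8 at 2000 bp, and to 42.4 with genes lacking a ranked peak left out. With each replicate alone it was 26.7 to 31.9. Apart from 42.4, each of these values is the one shared by all genes without a peak. They follow from the share of all genes with a peak. Of the ceh genes they show only that most had no peak. The distance from the ceh-100 start to the nearest thresholded summit, 798 bp, was 796 to 61888 bp with each replicate alone, the larger value without replicate 2. The remaining alternatives kept the counts within 1.5 times. Among them, the nearest gene only gave 2 conservative ceh genes and small RNA peaks left out also gave 2, losing ceh-100 and ceh-43 respectively. No paired analysis was possible because no result comes from a test between groups. Unknown depth, 2 replicates and 63 genes limit what could be seen.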

Other observations

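One conservative peak lay deep inside a ceh gene and far from any start, in ceh-60, and it was picked after its values were seen. CEH-60 is a Pbx-type TALE protein that acts on yolk protein genes of the intestine. The peak, at chrX:6522643-6522958, had its summit in coding sequence, 7345 bp from the ceh-60 start and 205 bp before the end of the gene, and the nearest start, of the ETS factor gene ets-4, was 2982 bp away. Its joint signal was 102.7 at an IDR of 0.00268 and rank 1286 of 1685. The signal was 49.7 in replicate 1 and 51.6 in replicate 2, and neither passed its own threshold. The peak was not in the second thresholded set.

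A joint ranked summit lay anywhere inside the gene, starts included, at 16 of 63 ceh genes (25.4%), beside 31.0% of all genes. Their median length was 2652 bp beside 2027 bp. There were 1.18 summits per 10000 bp of ceh gene, from 26 summits, beside 2.12 over all genes. In the latter value a summit in overlapping genes counts for each of them. ceh-100 alone adds 21503 bp and no summit to the ceh value. The nearest conservative summit was a median of 31565 bp from a ceh start, beside 27308 bp over all genes, and it was over 10000 bp away at 55 ceh genes (87.3%) beside 73.2%. These shares were not tested.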
